A study of Homo sapiens with 3 samples.

Results

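The genes described here are 54 human genes of mitosis, the division of duplicated chromosomes between daughter cells. They encode kinases and cyclins of mitotic entry, the chromosomal passenger complex, the spindle assembly checkpoint, regulators of anaphase, kinetochore proteins, spindle motors, cytokinesis proteins, condensin with other chromosome proteins, and a pair of transcription factors. Members were matched by gene symbol to a list drawn up with earlier results of these data known, and all 54 were found among the 58735 genes of the deposited table. They were measured by RNA-seq of total RNA in HaCaT cells, a spontaneously immortalised line of human epidermal keratinocytes, labelled wild type. A control culture exposed to no particles, a culture with carbon black (CB) at 25 µg/mL and a culture with S1650b, a particle sample known here by its code, at 50 µg/mL gave 1 library each after 24 h. The labels describe the particles as given in serum-free medium after overnight culture in medium with serum, and do not state separately which medium the control had.

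Each group is 1 library, so no difference below has a replicate check and no test between groups was possible. The doses of CB and S1650b differ as well, so particle and dose cannot be told apart between them. A level is given as scaled CPM, counts scaled to library size with TMM factors (trimmed mean of M values), or as the deposited FPKM, which also divides by gene length. A fold is the ratio of 2 scaled CPM values, and the 95% interval beside it is an exact conditional binomial (Clopper-Pearson) interval that covers counting error only. Reads copied by PCR are not independent molecules, so these intervals may be too narrow. A gene was called higher or lower when its fold was at least 2 and its interval lay on that side of 1. Of all genes, 14709 reached 1 CPM in at least 1 library and are the tested genes. All 54 mitotic genes were among them, and each was above 1 scaled CPM in every library.

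Mitosis begins when CDK1 bound to cyclin B phosphorylates its substrates. The condensin complex then compacts chromosomes, and kinetochores built on the centromeric histone CENPA attach them to spindle microtubules. The spindle assembly checkpoint holds CDC20, the activator of the anaphase-promoting complex, until attachment is complete. Ubiquitination by that complex then destroys securin and cyclin B, which frees separase and ends mitosis. Transcripts of many of these genes rise late in the cell cycle, and the DREAM and MuvB complexes, MYBL2 and FOXM1 act on their promoters through the CHR element, often beside CCAAT boxes bound by NF-Y. In dividing keratinocyte cultures MKI67 and TOP2A are common markers of cycling cells.

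Because the mitotic genes are known for these promoter elements, the windows from 250 bases before to 50 bases after the RefSeq start of each gene (GRCh38.p14) were searched for them. Windows were found for 45 of the 54 genes. The next lines show the 150 bases before the start, 5′ to 3′ on the gene's strand. CCNB2, CCNB1, PLK1, CDC20 and MKI67 are shown as genes with both element types, SPC24 as the gene furthest below the control with S1650b and ECT2 as the nearest to it. Capitals mark CCAAT or its reverse complement ATTGG, and the CHR forms TTTGAA (reverse complement TTCAAA) and TTTAAA (its own reverse complement).
CCNB2, chr15:59104996-59105145, plus strand: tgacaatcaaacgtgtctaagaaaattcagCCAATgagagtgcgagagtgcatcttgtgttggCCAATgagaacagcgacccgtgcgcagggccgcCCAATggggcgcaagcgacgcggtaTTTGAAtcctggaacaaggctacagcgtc
CCNB1, chr5:69167000-69167149, plus strand: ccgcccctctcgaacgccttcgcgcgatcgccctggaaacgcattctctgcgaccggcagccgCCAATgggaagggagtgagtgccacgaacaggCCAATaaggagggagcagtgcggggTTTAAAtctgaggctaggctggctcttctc
PLK1, chr16:23678739-23678888, plus strand: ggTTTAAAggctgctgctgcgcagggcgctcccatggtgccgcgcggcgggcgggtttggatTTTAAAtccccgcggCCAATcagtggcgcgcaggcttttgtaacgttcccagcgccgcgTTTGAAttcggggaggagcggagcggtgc
CDC20, chr1:43358831-43358980, plus strand: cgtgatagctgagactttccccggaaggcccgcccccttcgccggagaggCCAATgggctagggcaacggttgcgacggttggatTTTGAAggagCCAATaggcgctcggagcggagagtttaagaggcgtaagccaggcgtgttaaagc
MKI67, chr10:128126424-128126573, minus strand: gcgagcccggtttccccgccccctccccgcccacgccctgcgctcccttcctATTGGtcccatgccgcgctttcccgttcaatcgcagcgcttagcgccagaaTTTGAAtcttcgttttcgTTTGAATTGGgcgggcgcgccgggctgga
SPC24, chr19:11155783-11155932, minus strand: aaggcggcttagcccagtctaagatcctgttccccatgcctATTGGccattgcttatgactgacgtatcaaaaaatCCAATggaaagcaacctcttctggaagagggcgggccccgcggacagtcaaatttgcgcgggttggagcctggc
ECT2, chr3:172750576-172750725, plus strand: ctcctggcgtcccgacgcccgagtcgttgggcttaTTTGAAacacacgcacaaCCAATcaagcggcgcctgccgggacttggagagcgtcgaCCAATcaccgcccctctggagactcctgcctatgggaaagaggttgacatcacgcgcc

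The matches named here lie in the 150 bases shown unless stated. CCNB2, encoding cyclin B2, held 3 CCAAT boxes whose first bases lay 120, 87 and 54 bases before the start, and TTTGAA at 29 bases. CCNB1, encoding cyclin B1, held CCAAT at 87 and 55 bases and TTTAAA at 30 bases. PLK1, encoding a mitotic kinase, held CCAAT at 73 bases and TTTGAA at 29 bases, with TTTAAA further away at 148 and 88 bases. In CDC20 the TTTGAA lay at 65 bases, between CCAAT boxes at 100 and 55 bases. MKI67 held TTTGAA at 47 and 29 bases and ATTGG at 98 and 24 bases, of which the nearer ATTGG shares a base with the nearer TTTGAA. SPC24 held ATTGG at 109 and CCAAT at 74 bases and neither CHR form in the 150 bases shown. ECT2 held CCAAT at 97 and 58 bases and TTTGAA at 115 bases, further from the start than the TTTGAA of CCNB2 and PLK1. A further TTTGAA in the ECT2 window began 34 bases after the start, outside the bases shown, and a further CCAAT ran across the start. Further matches in the CCNB2, CDC20 and SPC24 windows lay more than 150 bases before the start. A match is a string of letters, not a bound site, and RefSeq starts can differ from the gene starts of the count table's annotation.

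Across the whole windows, TTTGAA on either strand was held by 31 of the 45 genes (68.9%), against 9.6% of 10653 tested genes with a window and 15.4% of all 27305 windows. CCAAT was held by 32 of 45 (71.1%), against 36.6% of tested genes and 35.7% of all windows. TTTAAA was held by 14 (31.1%), against 7.46% of tested genes and 12.3% of all windows, and either CHR form by 37 (82.2%), against 15.6% of tested genes. Both CCAAT and TTTGAA were held by 24 (53.3%), against 4.18% of tested genes. The E2F string TTTCGCGC (either strand) was held by 1 gene, CDK1 (2.22%, against 1.03% of tested genes). Of 40 TTTGAA matches in the mitotic genes, 28 (70%) had their first base within 50 bases of the start, against 300 of 1128 (26.6%) in tested genes, a distance chosen after the positions were seen. In 91 windows of other mitosis genes, listed later, TTTGAA was held by 36.3% and CCAAT by 53.8%, and 61.5% of the TTTGAA matches lay within 50 bases of the start. The mitotic genes are well-known carriers of these strings, so the shares describe the windows and are set beside no test.

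**Figure D1:**
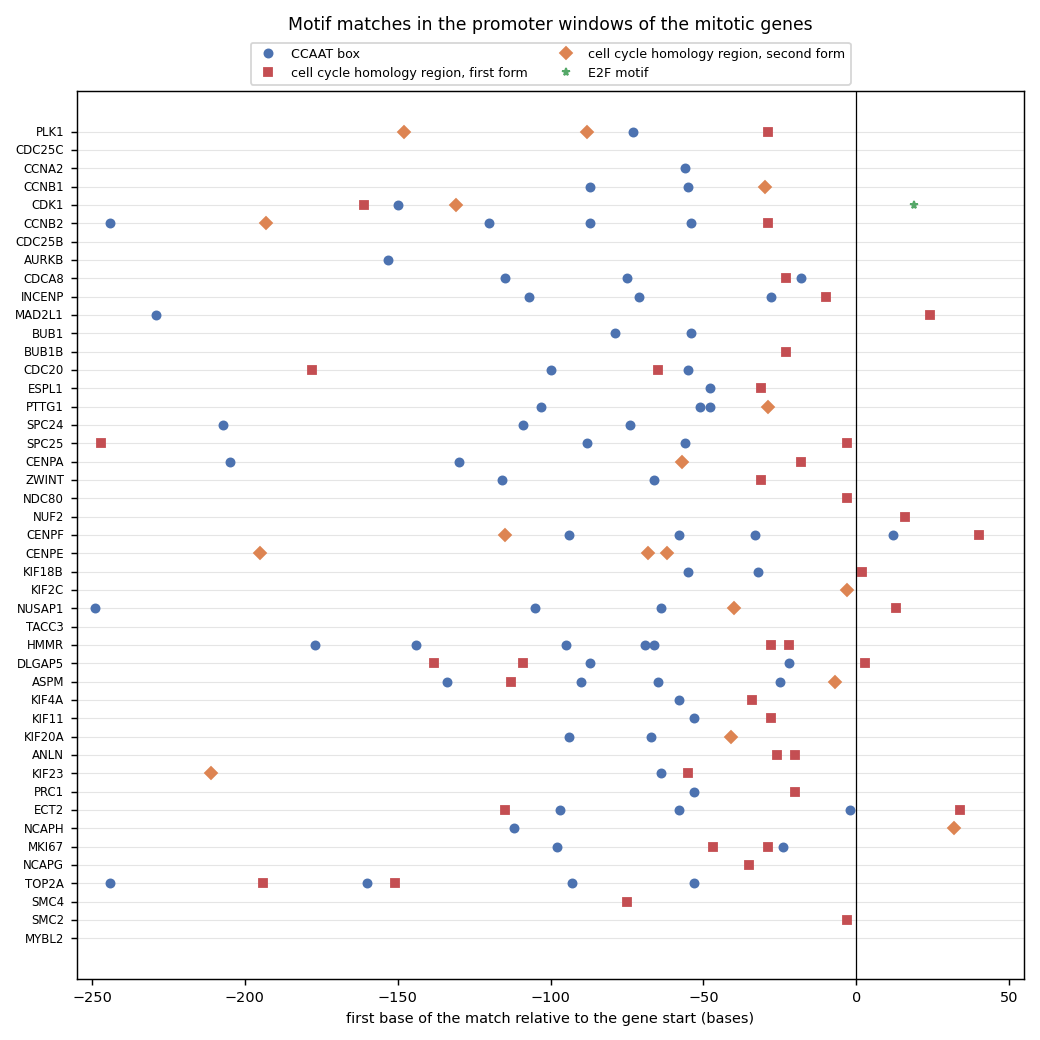
Position of each motif match in the promoter windows of the 45 mitotic genes with a RefSeq window; the x axis is the distance in bases of the first base of the match from the gene start, each row is 1 gene and each symbol 1 match. TTTGAA matches gather close to the start, 28 of 40 within 50 bases of it, while CCAAT matches have a median position of -74.5 bases.

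All 54 mitotic genes were lower in the culture given S1650b than in the untreated culture, and most were slightly higher in the CB library. Their summed scaled CPM was 4940 in the control, 5762 with CB and 1392 with S1650b, and their share of all counts was 0.470%, 0.553% and 0.152%. The median gene stood at 83.1, 100.4 and 22.0 scaled CPM. With S1650b, 43 of the 54 were called lower and 0 higher than the control, where 7.86% of tested genes were called lower and 12.1% higher. The median log2 fold was -2.04, or 4.11 times lower, beside -0.04 over all tested genes. The folds ran from 13.2 times lower in SPC24 to 1.19 times lower in ECT2, and all 54 counting intervals lay below 1. Of the 14709 tested genes, 7665 had a fold below 1, 5767 an interval below 1 and 4986 an interval above 1. At a fold of 1.5, 52 of the 54 were called lower and 0 higher, where 19.4% of tested genes were called lower and 22% higher. ECT2 and SMC2 were the 2 not called. Fewer mitotic cells and less of these transcripts per cell cannot be told apart in RNA from whole cultures. With total-count scaling the log2 fold of the median tested gene moved to 0.16, and 5.5% were called lower and 17.2% higher. The mitotic genes' median then was -1.84. Rescaling shifts the log2 fold of every gene by the same amount, so the distance to the median tested gene could not change.

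**Figure D2:**
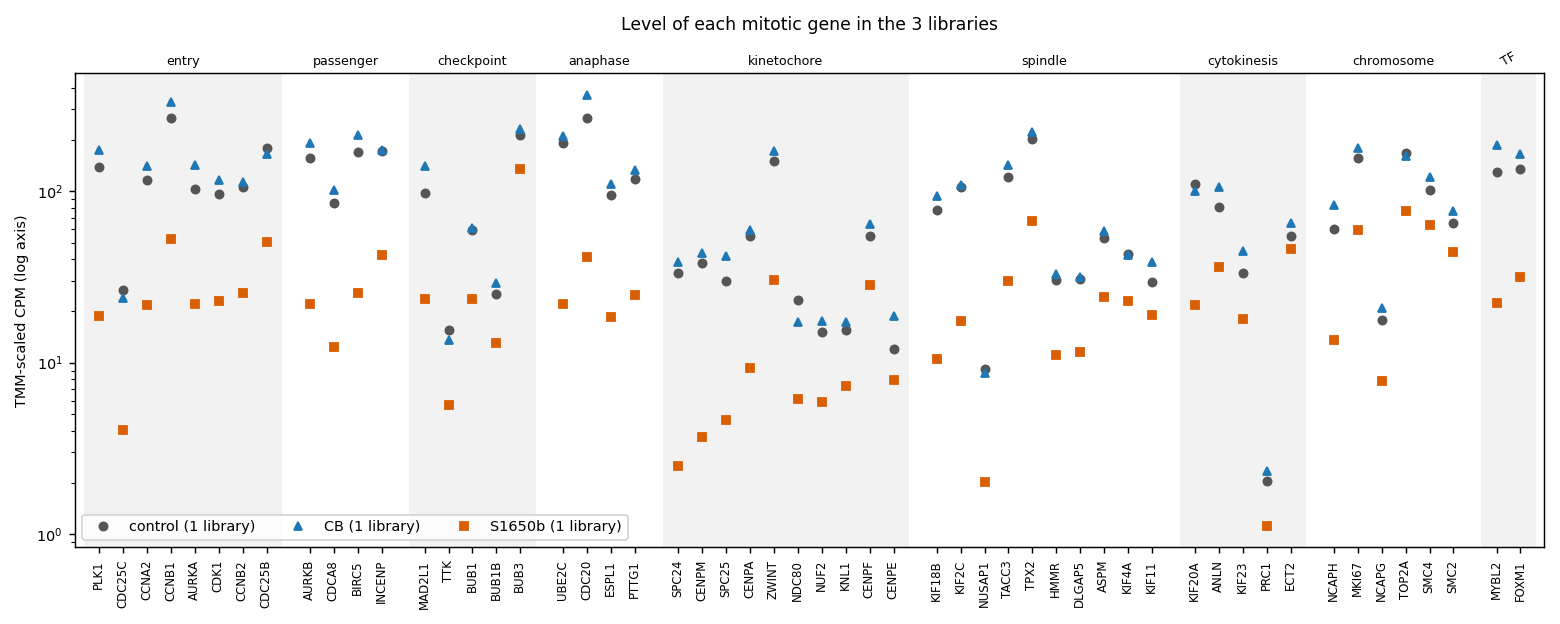
Level of each of the 54 mitotic genes in the 3 libraries, as TMM-scaled CPM on a log axis, grouped by role; each symbol is 1 library and there are no error bars because each group has 1 library. In every gene the S1650b symbol is the lowest of the 3, with a median of 22.0 scaled CPM against 83.1 in the control.

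With CB, 0 of the 54 genes were called higher and 0 lower than the control at a 2-fold change, where 1.69% of tested genes were called higher and 5.6% lower. The median log2 fold was 0.21, beside -0.01 over all tested genes. The fold was above 1 in 46 genes and below 1 in 8, and the counting interval lay above 1 in 37, below 1 in 3 and across 1 in 14. Of the 14709 tested genes, the fold was above 1 in 7290 and below 1 in 7417. Their intervals lay above 1 in 3910, below 1 in 3900 and across 1 in 6899. At a fold of 1.5, where 4.7% of tested genes were called higher and 10.7% lower, CENPE alone was called, as higher. NDC80, KIF20A and CDC25B were the 3 mitotic genes with an interval below 1. The number of genes below 1 ran from 5 to 10 of 54 over the alternatives. With the deposited FPKM, KIF4A and TOP2A turned above 0 and NUSAP1 reached 0 (log2 scale), INCENP and KIF2C turned below 0 with upper quartile scaling, and BUB1 and DLGAP5 did with length and GC trends removed.

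**Figure D3:**
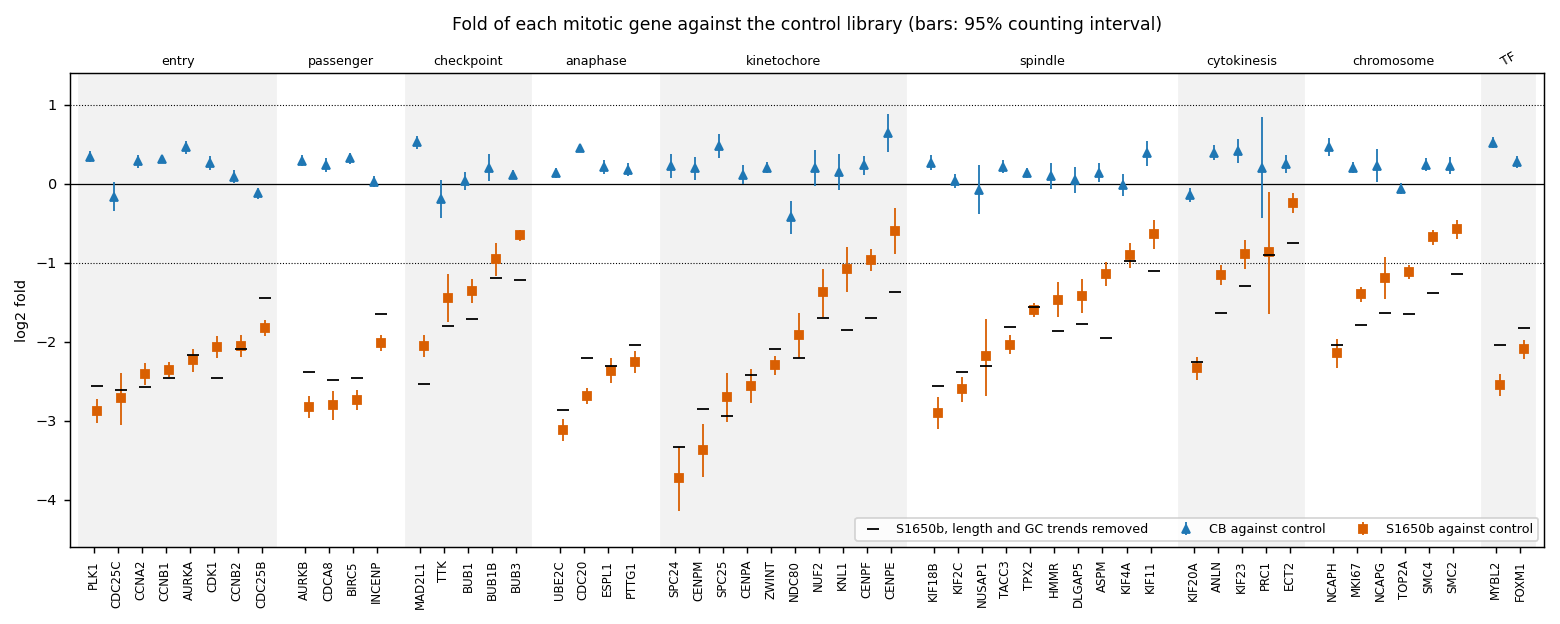
The log2 fold of each mitotic gene against the control library for CB and for S1650b, with bars for the 95% counting interval, dotted lines at a 2-fold change and short black lines for the S1650b value with length and GC trends removed. The CB values lie between -0.42 and 0.64, and the S1650b values between -3.71 and -0.25.

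The 8 genes of mitotic entry encode the cyclins, the kinases that start mitosis and the CDC25 phosphatases that activate CDK1. With S1650b all 8 were called lower, with a median log2 fold of -2.29. PLK1 (ENSG00000166851, GRCh38 chr16:23677656-23690367), a kinase of centrosome maturation and mitotic entry, stood at 138 scaled CPM in the control, 175 with CB and 18.8 with S1650b. It was 7.32 times lower with S1650b than in the control (interval 6.60 to 8.13) and 9.29 times lower than with CB. CDC25C had 26.7, 23.8 and 4.07 scaled CPM, and was 6.55 times lower with S1650b (5.24 to 8.28). CDC25B had the smallest change of the group, with 179, 165 and 50.7 scaled CPM and a level 3.54 times lower (3.31 to 3.78). CCNB1 had 267, 332 and 52.4 scaled CPM, 5.10 times lower with S1650b, and its partner kinase CDK1 had 96.2, 116 and 23.1, 4.17 times lower. AURKA, the kinase that matures centrosomes, had the largest CB difference in the group, from 103 to 142 scaled CPM (1.38-fold, 1.30 to 1.46), and 21.9 with S1650b. CCNA2 and CCNB2 were 5.30 and 4.14 times lower with S1650b. In this group both CDC25 genes had a CB level below the control, and the other 6 genes had one above it.

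The chromosomal passenger complex, made of the kinase AURKB, the scaffold INCENP, survivin (BIRC5) and borealin (CDCA8), corrects faulty attachments of chromosomes. All 4 genes were called lower with S1650b, with a median log2 fold of -2.77. AURKB had 156, 190 and 22.1 scaled CPM in control, CB and S1650b, 7.05 times lower with S1650b (6.41 to 7.77). CDCA8 had 85.6, 101 and 12.3, 6.98 times lower (6.14 to 7.96). BIRC5 had 170, 213 and 25.6, the largest CB difference of the 4 at 1.25-fold (1.195 to 1.308). INCENP had 172, 174 and 42.5, and was 4.04 times lower with S1650b (3.76 to 4.34). The INCENP share of the FPKM summed over the complex was 20.5% in the control, 17.7% with CB and 30.6% with S1650b, while that of AURKB was 37.1, 38.5 and 31.7%. The 4 subunits thus did not keep their proportions in the S1650b library.

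Of the 5 checkpoint genes, which signal unattached kinetochores, 3 were called lower with S1650b, and the median log2 fold was -1.35. MAD2L1, encoding the MAD2 protein that binds CDC20, had 97.7 scaled CPM in the control, 141 with CB and 23.6 with S1650b. It was 1.44-fold higher with CB (1.36 to 1.53) and 4.14 times lower with S1650b (3.76 to 4.57). TTK, the MPS1 kinase, had 15.4, 13.6 and 5.68 scaled CPM from only 304, 273 and 127 counts, and was 2.72 times lower with S1650b (2.20 to 3.37). BUB1 had 59.7, 61.4 and 23.4, 2.55 times lower. BUB1B and BUB3 missed the 2-fold rule, at 1.94 and 1.57 times lower. BUB3, which also has roles outside the checkpoint, had 213, 231 and 136 scaled CPM.

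The 4 genes of anaphase control were all called lower with S1650b, with a median log2 fold of -2.53. UBE2C (ENSG00000175063, GRCh38 chr20:45812576-45816957), the ubiquitin-conjugating enzyme of the anaphase-promoting complex, had 191, 211 and 22.0 scaled CPM and was 8.67 times lower with S1650b (7.89 to 9.55). CDC20 (ENSG00000117399, GRCh38 chr1:43358955-43363203) had 266, 365 and 41.3, 1.37-fold higher with CB (1.32 to 1.42) and 6.45 times lower with S1650b (6.01 to 6.93). PTTG1, which encodes securin, had 118, 134 and 24.7 and was 4.77 times lower (4.34 to 5.24). ESPL1, encoding separase, the protease that cuts cohesin, had 94.5, 110 and 18.4 and was 5.15 times lower. Per length, UBE2C, CDC20 and CCNB1 were the 3 most abundant of the 54 genes in the control, at 147.5, 129.7 and 103.7 FPKM. CDC20 led with CB at 187 FPKM, followed by UBE2C at 171 and CCNB1 at 136. With S1650b the order was CCNB1 at 20.3, CDC20 at 20.1 and TPX2 at 18.4 FPKM, of which the first 2 differ by little. Near-identical gene copies held few counts beside these genes: CDC20P1 held 14, 30 and 2, and UBE2CP5 held 23, 13 and 15. How reads that match several copies were assigned is unknown here.

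Of the 10 centromere and kinetochore genes, 8 were called lower with S1650b, with a median log2 fold of -2.10. SPC24 (ENSG00000161888, GRCh38 chr19:11131520-11155808), a subunit of the NDC80 complex that links kinetochores to microtubules, had 652, 777 and 56 counts, or 33.1, 38.6 and 2.51 scaled CPM. It was 13.2 times lower with S1650b (10.1 to 17.7), the largest fold of the 54. CENPM (ENSG00000100162, GRCh38 chr22:41938721-41947164), of the constitutive centromere network, had 746, 873 and 82 counts and was 10.3 times lower (8.22 to 13.1). SPC25, CENPA and ZWINT were 6.48, 5.87 and 4.91 times lower. NDC80 itself had 23.1, 17.2 and 6.13 scaled CPM, the lowest CB fold of the 54 at 0.746 (0.647 to 0.860), and was 3.76 times lower with S1650b. CENPE, the kinesin that carries chromosomes to the spindle equator, had 237, 377 and 178 counts. It was 1.56-fold higher with CB (1.32 to 1.84) and 1.51 times lower with S1650b (1.24 to 1.85). CENPF, at 1.95 times lower, was the other gene of the group outside the 2-fold rule. CENPE, KNL1 and NUF2 rested on 131 to 377 counts in each library, and their counting intervals were wide.

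The 4 subunits of the NDC80 complex act in equal numbers, and their transcripts were in different proportions in each library. SPC24 made up 30.1% of the summed FPKM of the 4 in the control, 29.5% with CB and 12.9% with S1650b. NUF2 made up 11.6, 11.3 and 25.5%, and NDC80 16.5, 10.3 and 24.9%. SPC25 stayed the most abundant of the 4 per length, at 41.8, 48.9 and 36.6%. The SPC24 and SPC25 pair was further below the control with S1650b than the NDC80 and NUF2 pair. SPC24 and SPC25 are also the shorter genes of the 4, at 2839 and 1841 exon bases against 3600 and 3362.

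Of the 10 spindle motors and microtubule-associated proteins, 8 were called lower with S1650b, with a median log2 fold of -1.53. KIF18B, a kinesin that acts on the plus ends of astral microtubules, had 78.1, 94.2 and 10.5 scaled CPM and was 7.45 times lower with S1650b (6.49 to 8.59). KIF2C, a microtubule-depolymerising kinesin at centromeres, had 105, 108 and 17.4, 6.05 times lower (5.42 to 6.76). KIF11, the motor that separates spindle poles, had the smallest S1650b change and the largest CB difference of the group. It had 29.7, 38.8 and 19.1 scaled CPM, 1.31-fold higher with CB (1.17 to 1.46) and 1.56 times lower with S1650b (1.37 to 1.77). TPX2, the activator of AURKA on the spindle, had 202, 223 and 66.8, 3.03 times lower. TACC3 was 4.09 times lower, HMMR 2.76, DLGAP5 2.67 and ASPM 2.20 times lower. KIF4A, at 1.87 times lower, missed the rule, and its close copy KIF4B held only 7, 8 and 1 counts. NUSAP1 was 4.54 times lower (3.26 to 6.45) on 180, 175 and 45 counts, and 62.2% of its exon bases are shared with another annotated gene, so its counts are uncertain.

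The 5 midzone and cytokinesis genes were nearest to the control, with 2 called lower with S1650b and a median log2 fold of -0.89. KIF20A, a kinesin of the central spindle, had 110.0, 99.9 and 21.8 scaled CPM, 0.908-fold with CB (0.854 to 0.965) and 5.05 times lower with S1650b (4.57 to 5.58). ANLN, the scaffold of the contractile ring, had 80.6, 106 and 36.2, 2.22 times lower (2.04 to 2.42). KIF23, a motor of the centralspindlin complex, had 33.5, 44.8 and 18.1, 1.33-fold higher with CB (1.21 to 1.48) and 1.85 times lower with S1650b (1.64 to 2.10). ECT2 (ENSG00000114346, GRCh38 chr3:172750682-172821474), the exchange factor that activates RHOA for furrowing, had 54.7, 65.0 and 46.1. It was 1.19 times lower with S1650b (1.09 to 1.29), the smallest change of the 54, and 1.41 times lower than with CB. PRC1, which bundles midzone microtubules, had only 40, 47 and 25 counts and was the least abundant of the 54 per length in all 3 libraries. Exons of other genes overlap 58.4% of PRC1, and its interval of 1.08 to 3.13 times lower is the widest in this group.

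Of the 6 genes of condensin and chromosome structure, 4 were called lower with S1650b, with a median log2 fold of -1.15. NCAPH, the kleisin subunit of condensin I, had 60.2, 83.1 and 13.6 scaled CPM. It was 1.38-fold higher with CB (1.28 to 1.49) and 4.42 times lower with S1650b (3.90 to 5.03). MKI67, encoding the Ki-67 protein that coats mitotic chromosomes, had 156, 180 and 59.1 and was 2.63 times lower (2.47 to 2.81). TOP2A, which untangles sister DNA, had 167, 160 and 76.8 and was 2.17 times lower (2.04 to 2.30). NCAPG was 2.28 times lower. The condensin core ATPases SMC2 and SMC4 missed the 2-fold rule, at 1.49 (1.37 to 1.62) and 1.60 (1.49 to 1.71) times lower. NCAPH made up 20% of the FPKM summed over 5 condensin I subunits in the control, 24.2% with CB and 11% with S1650b, while SMC2 made up 11, 11.3 and 18.1%. Exons of other genes overlap 33.1% of NCAPG and 25.6% of SMC4.

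The transcription factors MYBL2 and FOXM1, which bind with the MuvB complex at promoters of late cell cycle genes, were both called lower with S1650b. MYBL2 had 130, 187 and 22.3 scaled CPM, 1.44-fold higher with CB (1.37 to 1.51) and 5.82 times lower with S1650b (5.28 to 6.42). FOXM1 had 135, 164 and 31.7 and was 4.27 times lower (3.93 to 4.64).

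Set directly against the CB library, S1650b had 49 of the 54 genes called lower and 0 higher, where 9.46% of tested genes were called lower and 16.1% higher. The median log2 fold was -2.12, beside 0.02 over all tested genes. BUB3, KIF4A, ECT2, SMC2 and SMC4 were the 5 genes below the 2-fold rule, and all 54 counting intervals lay below 1. Of the 14709 tested genes, 5594 had an interval below 1 and 5632 one above 1. At a fold of 1.5, 53 of the 54 were called lower and 0 higher, where 20.6% of tested genes were called lower and 26.3% higher. This comparison shares the S1650b library with the comparison against the control and adds no independent measurement of it. CENPE had 18.8 scaled CPM with CB and 7.97 with S1650b, 2.35 times lower, against 1.51 times lower when set against the control.

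Gene length and base composition moved with the S1650b values. Across the 54 genes, Pearson's r between log2 fold against the control and log2 exon length was 0.697 (Spearman's rho 0.717), and with GC percent it was -0.675 (-0.681). Over 14703 tested genes with both properties the same values were 0.233 (0.302) and -0.384 (-0.437). For CB they were 0.012 and 0.032 over the 54. These are correlations across genes of the same libraries, and genes are not independent replicates. The 18 shortest mitotic genes, of 1286 to 3338 exon bases, had a median log2 fold of -2.54 and a range of -3.71 to -2.05. The 18 of 3362 to 4899 bases had a median of -1.86, and the 18 of 4921 to 12807 bases one of -1.10 with a range of -2.36 to -0.25. Other tested genes within those length ranges had medians of -0.29, -0.12 and 0.16. After the trends with length and GC over all tested genes were removed, the medians were -2.40, -1.81 and -1.64. On that scale 51 of the 54 genes were called lower than the control, where 7.2% of tested genes were called lower and 7.33% higher. The median of the 54 was then -1.99, and SPC24 and ECT2 were at -3.34 and -0.75. The part of length and GC content in the order of the mitotic genes was not tested beyond this.

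**Figure D4:**
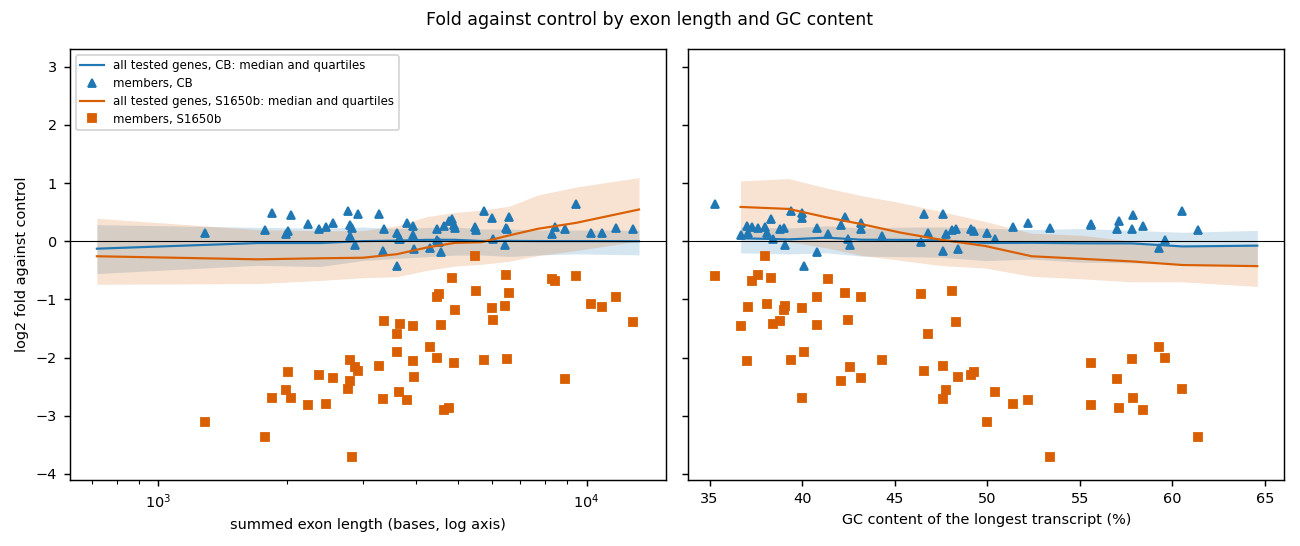
The log2 fold against control of the 54 mitotic genes by exon length (log axis, bases) and by GC content (percent), for CB and S1650b, over lines and bands for the median and quartiles of all tested genes in bins. All S1650b points but ECT2 lie below the band for their length, and their median is -2.54 among the 18 shortest genes and -1.10 among the 18 longest.

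The S1650b values were also split by promoter string, as a description with no test. The 31 genes with TTTGAA had a median log2 fold of -1.42 against the control and the 14 without it -2.34, or -1.78 and -2.15 with both trends removed. The 32 with CCAAT had a median of -2.10 and the 13 without it -1.37, or -2.09 and -1.64 with both trends removed. The 24 with both CCAAT and TTTGAA and the 21 others had the same median, -2.03. SPC24, with no TTTGAA or TTTAAA in the bases printed above, and PLK1, with both, were both among the genes furthest below the control. With CB the medians were 0.22 with TTTGAA and 0.22 without.

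Other genes of mitosis, in 7 lists with 102 members that exclude the 54, were lower less uniformly with S1650b. Of the 102, 45 (44.1%) were called lower and 2 (1.96%) higher than the control, with a median log2 fold of -0.90. Among tested genes 7.86% were called lower and 12.1% higher, shares that also stand beside the lists below. With CB 0 were called at 2-fold, where 1.69% of tested genes were called higher and 5.6% lower. With CB at 1.5-fold, SKA1 (1.56-fold) and KIF14 (1.51-fold) were called higher, 1.96% of the 102 against 4.7% of tested genes. Among 15 regulators of entry and exit, 10 were called lower, led by GTSE1 (-2.79) and PKMYT1 (-2.47), with BORA at -0.20 and ARPP19 at 0.41. Among 25 further centromere and kinetochore genes 14 were called lower, led by OIP5 (-2.64) and CENPW (-2.63), with MIS12 at 0.02 and CENPC at 0.39. Among 23 further motors, augmin subunits and spindle proteins 13 were called lower, led by KIFC1 (-2.86) and KIF22 (-2.16), with CKAP5 at 0.72 and HAUS6 at 0.84. Of 9 checkpoint and cohesion-protection genes 3 were called lower, among them TRIP13 (-1.97) and SGO1 (-1.31), with SPDL1 at -0.16 and ZW10 at 0.31. The 4 remaining condensin subunits had 3 called lower, NCAPH2 (-1.49), NCAPD2 (-1.45) and NCAPG2 (-1.33), and NCAPD3 stood at -0.51.

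The anaphase-promoting complex, the partner of UBE2C and CDC20, was near the background. Of 16 genes of the complex and its cofactors, only UBE2S, its chain-elongating enzyme, was called lower with S1650b (-1.99), which is 6.25% against 7.86% of tested genes, and the median log2 fold was -0.20. ANAPC11 was at -0.97 and FZR1, a CDC20 relative that also activates the complex, at -0.91, while CDC27 and ANAPC1 were at 0.77 and 0.98. Among 10 cohesin genes CDCA5 (sororin), which protects cohesion, was called lower (-2.91), and NIPBL (1.39) and WAPL (1.19), which load and release cohesin, were called higher. These 2 of 10 stand beside 12.1% of tested genes called higher, too few genes to read a difference from. SMC1A was at -0.17, and the median of the cohesin list was 0.65. With length and GC trends removed that median was -0.13, and NIPBL and WAPL were at 0.58 and 0.66. Then 0 of the 102 genes were called higher, against 7.33% of tested genes. CENPC, ARPP19 and MIS12 turned below 0 with those trends removed, and SMC1A and SPDL1 turned above 0 with total-count scaling.

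Genes of the preceding phases were measured beside them. Of 24 G1/S and replication genes, 19 were called lower with S1650b (79.2%, against 7.86% of tested genes), with a median log2 fold of -1.58. CDC45 (-2.43) and CDT1 (-2.30) led them, MCM2 was at -1.82 and PCNA at -1.47, and CCNE2 and POLA1 were at 0.06 and 0.59. TTTGAA was held by 5.26% of the 19 windows of this list and TTTCGCGC by 21.1%, against 68.9% and 2.22% in the mitotic genes, while CCAAT was held by 73.7% of them, against 71.1%. With CB, CDC45 and CCNE2 were called higher at 1.5-fold, 8.33% of the list against 4.7% of tested genes. CDKN1A, which encodes the CDK inhibitor p21, had 66.8 scaled CPM in the control, 74.9 with CB and 180 with S1650b, 2.70-fold higher with S1650b (2.54 to 2.88). It was the only gene called higher among 17 tested CDK inhibitor and DREAM genes, 5.88% against 12.1% of tested genes. RBL2, encoding the DREAM subunit p130, was at 0.82 with S1650b and -0.62 with CB. Called lower with S1650b were 2 of the 17 (11.8%, against 7.86% of tested genes), among them CDKN2A at -1.48. LIN9, LIN37, LIN52 and LIN54, subunits of the MuvB core, lay between -0.54 and -0.19. CDKN2B was lower with CB, at -1.06, and at 0.70 with S1650b.

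**Figure D5:**
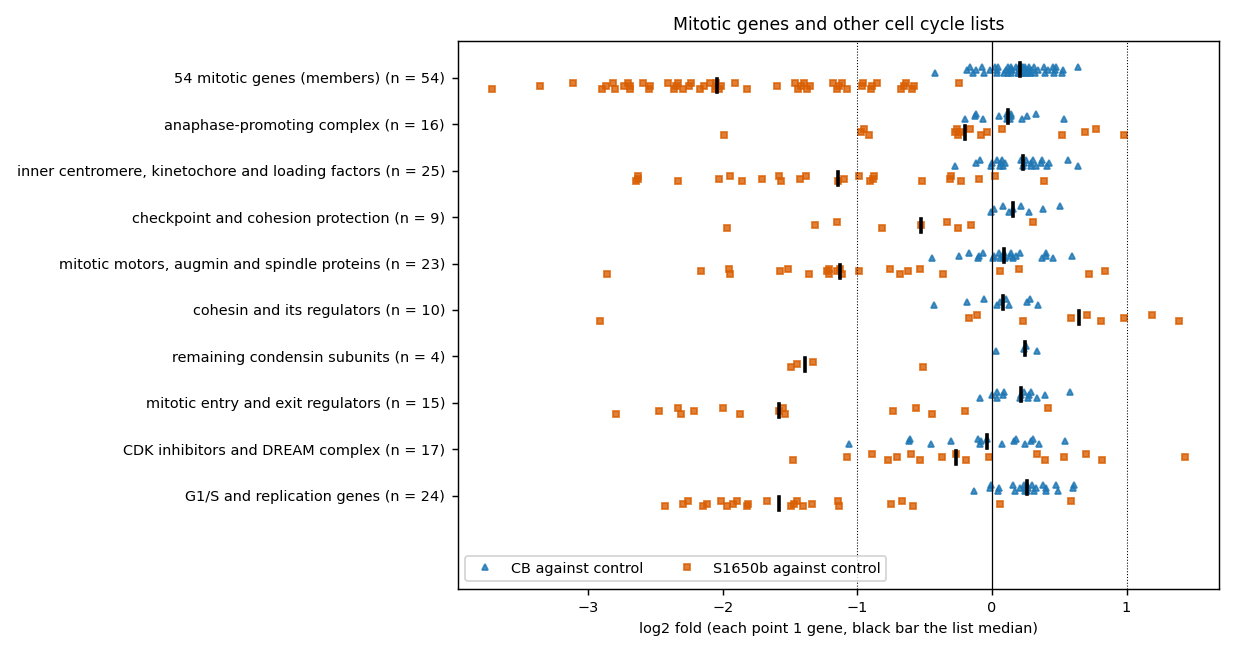
The log2 fold against control of each gene for CB and S1650b in the mitotic genes and in 9 other cell cycle lists; each point is 1 gene, black bars are list medians and dotted lines mark a 2-fold change. With S1650b the medians run from -2.04 in the 54 mitotic genes to 0.65 in the cohesin list.

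The libraries held 20658247 (control), 20946139 (CB) and 20417744 (S1650b) counts. Keratinocyte identity was checked on 10 markers, which were all counted in each library. KRT5 had 7008, 5914 and 2222 scaled CPM and KRT14 had 4069, 3912 and 1400, so these basal keratins were 3.15 and 2.91 times lower with S1650b. KRT15 had 2401, 872 and 871, and was 2.75 times lower with CB and 2.76 times lower with S1650b. Of the 10 markers 5 were below and 5 above the control with S1650b, up to DSG3 at 1.75-fold, and their median log2 fold was -0.05. The 10 markers summed to 17573, 14189 and 8501 scaled CPM, far above the sums for markers of other cell types. In the control DCN and CDH5 of those still reached 54.2 and 51.5, near the mitotic gene ECT2 at 54.7. In control, CB and S1650b, 8 fibroblast markers summed to 93.2, 30.4 and 13.0 scaled CPM, with FAP at 0. DCN gave 54.2, 7.61 and 1.84 of these, COL3A1 32.4, 16.9 and 3.71, and COL1A1 6.10, 5.27 and 6.98. The 7 endothelial markers summed to 58.4, 32.1 and 48.0, mostly CDH5, with KDR and TEK at 0. The 6 melanocyte markers summed to 9.76, 8.21 and 9.49, with TYR, TYRP1 and DCT at 0, and 6 immune markers to 1.93, 1.24 and 1.21. The fibroblast sum was lower with both particles and came mostly from DCN and COL3A1 in the control. The part of cell makeup in the mitotic values was not tested.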

How the data were processed

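RNA-seq of 3 HaCaT libraries (control, CB, S1650b) was used, 1 per group. Trizol extraction of total RNA and a NEBNext Ultra RNA library kit are recorded, per the labels' protocols. The deposited count table holds whole-number counts per Ensembl gene, and the deposited FPKM table holds the authors' FPKM for the same genes. All 58735 identifiers are in GENCODE 29 (GRCh38), which gave positions and exon lengths. Symbols came from a separate gene name list for 58207 genes and from GENCODE 29 for the rest. In the control library, counts divided by FPKM matched the GENCODE 29 exon lengths within 1%, up to a common factor. This held for 100% of the genes with counts in all 3 libraries. The deposited FPKM rest on library sizes of 0.972 (CB) and 1.14 (S1650b) times the control's. CASAVA 1.7 and mouse builds appear in the submitters' processing notes, and such builds conflict with human identifiers. Aligner, counter and strand handling, not given in the sources used here, leave overlapping and antisense genes uncertain.

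The 14709 genes that reached 1 CPM in any library were kept. Under edgeR 4.0.16 (R 4.3.3) the TMM factors came to 0.952 (control), 0.960 (CB) and 1.09 (S1650b). Before log2, 0.5 counts were added. Trends with log2 length and GC were removed by lowess (span 30%). Intervals came from scipy 1.17.1, lowess from statsmodels 0.14.6 and plots from matplotlib 3.10.9 under Python 3.11.15. The fold calculation was tested on simulated data. Members and gene lists were chosen with earlier results of these data known. Per role group, the 2 lowest and the highest with S1650b, the gene furthest from 1 with CB and any gene called at 1.5 with CB are given in full, and per other list the 2 lowest and 2 highest, with CDKN1A, RBL2, FZR1, KRT5, KRT14, MCM2 and PCNA. TACC3, HMMR, DLGAP5, the LIN genes, CDKN2B and others are named beyond that as illustration, chosen after their values were seen. A gene that the rule names is not reported here. RefSeq promoter windows came from GRCh38.p14. Alternatives were other scalings (total counts, DESeq2 1.42.0 size factors, upper quartile), deposited FPKM with 0.1 added, other filters, 5 counts added, trend removal, protein-coding genes and folds of 1.5 and 3.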

Additional observations from a re-analysis of the deposited data

How the results depend on the processing

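No paired analysis was possible because each group holds 1 library, and leaving out a replicate was not possible for the same reason. The 54 mitotic genes were below the control with S1650b in each scaling, pseudocount and trend removal run, as were the 53 tested with the 5 CPM filter, which PRC1 did not pass. Those called lower ranged from 38 (total counts, against 5.5% of tested genes) to 52 (GC trend removed, against 7.75%) at a fold of 2. Total-count scaling moved the median log2 fold to -1.84 against the control and -1.93 against CB, and leaving out 4 genes with over 25% exon overlap, chosen after seeing the data, moved the latter to -2.22. At a fold of at least 3, 32 were called lower against the control and 32 against CB, and 22 other mitosis genes were called lower against the control. Shares of tested genes called at a fold of 3 were not worked out, so the counts at that fold have no background beside them. Other mitosis genes called higher with S1650b against the control numbered 6 with total counts, where 17.2% of tested genes were called higher. They numbered 4 each with median-of-ratios factors, upper quartile, a 5 CPM filter and protein-coding genes, against 11.5 to 13.5% of tested genes. With the length trend, the GC trend or both removed they numbered 0, against 7.33 to 9.23%. At a fold of 1.5 they numbered 11 (10.8%), against 22% of tested genes, and at 3 they numbered 0. Against CB the same count was 5 with total counts, against 21.1% of tested genes. It was 0 with the length trend, the GC trend or both removed, against 12.1 to 13.1% of tested genes. At 1.5 it was 11 (10.8%), against 26.3% of tested genes, and at 3 it was 0. With CB at 1.5, 1 mitotic gene (1.85%) and 2 other mitosis genes (1.96%) were called higher, against 4.7% of tested genes. The correlation with length was 0.519 with the length trend removed and 0.564 with both removed, and that with GC was -0.339 with the GC trend removed and -0.368 with both removed. Of the other summary values 193 kept their call or stayed within the margin. The margin was a 1.5-fold ratio for counts of genes and 0.1 for a median log2 fold or a correlation. Log2 folds of single genes, mitotic and otherwise named, were held against their own reported counting interval over the 3 comparisons. With total-count scaling 138 left it and 147 stayed inside. These numbers were 150 and 135 with the GC trend removed, 97 and 188 with the length trend removed, and 146 and 139 with both. With 1 library per group the spread between cultures is unknown, and low counts widen the intervals of PRC1, NUSAP1 and CENPE.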
